A study of Homo sapiens with 4 samples.

Results

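The levels of 10 Wnt pathway genes were followed in the human embryonic kidney line HEK293. They were LGR4, LGR5, SFRP1, SFRP5, AXIN2, ZNRF3, RNF43, NKD1, LEF1 and TCF7, taken by symbol from a fixed list of Wnt receptors, antagonists and feedback targets after the Ensembl identifiers had been mapped to symbols. All 10 were found among 40188 genes with a value. The members were chosen by measured values as well as by function: the differences of LGR5 between MSI1 and the empty vector and of SFRP5 between SRRM4 and SRRM3 were already known, so the values below are a description and carry no test.

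The study generated stable, doxycycline-inducible HEK293 lines and sequenced polyA-selected RNA with a stranded protocol. Each of the 4 groups had 1 library. The lines carried the empty vector, MSI1, which encodes a protein that binds RNA, SRRM3 or SRRM4, which encode splicing factors that promote the inclusion of neural microexons. All 4 lines, the empty vector included, were grown in tetracycline-free serum and received doxycycline at 1 µg/mL for 24 h. The title of the series names the regulation of retinal microexons as its subject. Whether a line was a single clone or a pool is not stated in the labels, and an effect of the transgene and a difference between lines cannot be told apart. With 1 library per group no difference has a replicate check. In a bulk library, fewer cells that make a transcript and less of it per cell cannot be told apart either.

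Wnt ligands bind Frizzled receptors with the co-receptors LRP5 and LRP6, which stabilises β-catenin and lets it act on target genes with the transcription factors of the TCF and LEF family. Several of those targets feed back on the pathway: AXIN2 rebuilds the complex that destroys β-catenin, NKD1 acts on Dishevelled, and the ubiquitin ligases ZNRF3 and RNF43 remove Frizzled from the cell surface. LGR4 and LGR5 bind R-spondins, which take ZNRF3 and RNF43 out of action, and SFRP1 and SFRP5 are secreted proteins that bind Wnt ligands. LGR5 is best known as a marker of stem cells in the intestine and other epithelia.

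Promoter windows of RefSeq (GRCh38.p14) ran from 250 bases before to 50 bases after a start. Windows were used for LGR4, SFRP5, RNF43, LEF1 and TCF7 only, and promoters of the other members were not examined. There were 7 windows in all. Those of LEF1 and TCF7 lie inside the gene coordinates given below, so the outermost annotated starts of LEF1 and TCF7 were not searched. The 7 windows were searched on both strands for the 4 forms of the TCF/LEF motif, the core CTTTG with the ending AA, AT, TA or TT. SFRP5 is shown because it had the widest range of the members over the libraries, and TCF7 because its starts differ in this search. Letters are in lower case, and capitals mark a match.
SFRP5, chr10:97771950-97772249, minus strand: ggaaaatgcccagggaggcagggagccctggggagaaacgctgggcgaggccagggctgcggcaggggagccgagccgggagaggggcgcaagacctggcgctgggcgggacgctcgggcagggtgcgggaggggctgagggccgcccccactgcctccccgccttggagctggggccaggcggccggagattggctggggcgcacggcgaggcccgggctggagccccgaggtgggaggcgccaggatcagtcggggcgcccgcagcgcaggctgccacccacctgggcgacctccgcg
TCF7, upstream start, chr5:134115363-134115662, plus strand: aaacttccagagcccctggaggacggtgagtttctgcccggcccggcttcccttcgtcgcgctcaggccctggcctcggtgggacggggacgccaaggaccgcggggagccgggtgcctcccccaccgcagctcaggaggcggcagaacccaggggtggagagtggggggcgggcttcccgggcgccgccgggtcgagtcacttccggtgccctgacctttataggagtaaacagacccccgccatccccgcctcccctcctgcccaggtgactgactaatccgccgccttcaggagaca
TCF7, downstream start, chr5:134123368-134123667, plus strand: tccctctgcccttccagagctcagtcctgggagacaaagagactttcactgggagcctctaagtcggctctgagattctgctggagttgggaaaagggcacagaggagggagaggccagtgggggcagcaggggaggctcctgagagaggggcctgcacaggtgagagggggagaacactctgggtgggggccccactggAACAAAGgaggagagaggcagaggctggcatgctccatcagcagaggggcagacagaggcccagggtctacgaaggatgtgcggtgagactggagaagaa
The match in the downstream TCF7 window is CTTTGTT on the strand opposite to the gene, and it is the only match of the 4 motifs in the 7 windows of these members. The SFRP5 window is rich in G and C (77.3%, against a median of 58.7% over all windows) and holds 28 CpG dinucleotides, while the downstream TCF7 window holds 3 and the upstream one 25. Of all 35116 windows of this length, 13.8% hold at least 1 of the 4 motifs and 5.20% hold CTTTGTT. A match of letters is a description of the window and not a binding site. TCF7 has transcripts from both starts, and those from a downstream start are known to encode proteins without the part that binds β-catenin; the deposited values are per gene and do not separate them.

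Total counts lay between 60288244 and 63003121 reads per library. The deposited values are cRPKM, a length- and depth-scaled read count (corrected RPKM), beside whole-number read counts. Each transgene was highest in its own library, with 7.45-fold the depth-scaled count of the empty vector for MSI1, 78.2-fold for SRRM3 and 165-fold for SRRM4. SRRM4 itself had 201 reads in the empty vector, 95 in the SRRM3 line and 6 in the MSI1 line. SRRM3 had 109 reads in the empty vector, 138 in the MSI1 line and 298 in the SRRM4 line. The ratio of the SRRM4 line to the empty vector for SRRM3 was 2.82 (95% counting interval 2.25 to 3.54). Of 9 kidney and epithelial markers 7 reached a mean of 1 cRPKM, with PAX2 just under it and PAX8 at no more than 6 reads, and the list summed to between 592 and 675 cRPKM. Of 8 neural markers 6 did so, with sums between 78.4 and 96.1 cRPKM, of 8 fibroblast markers 1 (COL1A1, sums 4.05 to 4.89 cRPKM) and of 7 blood markers 0 (sums 0.330 to 0.630 cRPKM). Of 6 genes of intestinal epithelium and its stem cells only CDX2 did so, with sums between 2.24 and 2.86 cRPKM, and OLFM4, ASCL2 and MUC2 had no more than 3 reads in any library, so LGR5 was measured here without these markers of intestine. The kidney and neural sums were both highest in MSI1 (675 and 96.1 cRPKM, against 592 and 80.0 in the empty vector), but their genes went both ways. From the empty vector to MSI1, KRT8 rose from 292.95 to 335.36 cRPKM, KRT19 from 85.37 to 110.36 and TUBB3 from 12.01 to 21.2. LHX1 fell from 4.23 to 3.71, WT1 from 3.38 to 2.78, SOX2 from 4.92 to 4.28 and NEFH from 2.63 to 2.08. The part of these differences in the values below was not tested.

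All 10 members passed the filter of a mean of at least 1 cRPKM over the libraries, and each was above 1 cRPKM in every library. On the per-length scale of cRPKM, LGR4 was the most abundant in every library, followed by TCF7 and LEF1, and NKD1 was the least abundant in every library. Ordered by their means, the levels were 17.4 cRPKM for LGR4, 13.2 for TCF7, 10.0 for LEF1, 7.93 for LGR5, 7.72 for RNF43, 6.23 for ZNRF3, 5.25 for AXIN2, 4.95 for SFRP1, 2.04 for SFRP5 and 1.15 for NKD1. The ranges of neighbours in this order overlapped for LEF1 and LGR5, for LGR5 and RNF43, and for AXIN2 and SFRP1, and did not overlap for the other neighbours. LGR5 was the fourth most abundant member in the empty vector, SRRM3 and SRRM4, and in MSI1 its rank was 8. Among the 12706 genes that passed the filter these are middling to low levels: 64.1% of them had a lower mean than LGR4, 11.7% a lower mean than SFRP5 and 2.10% a lower mean than NKD1.

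The low cRPKM of NKD1 did not come with few reads. It had between 1100 and 1261 reads per library, against 1252 to 1586 for AXIN2. The length that the deposited counts and cRPKM values imply was 16.9 kb for NKD1, whose longest transcript in GENCODE 29 has 17.1 kb, and 4.21 kb for AXIN2. For TCF7 the implied length was 2.87 kb, well under the longest annotated transcript of 5.34 kb, and for RNF43 it was 4.32 kb against 5.58 kb. SFRP5, a short gene with an implied length of 1.79 kb, had only 146 to 400 reads, so its intervals are the widest of the members.

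LGR5 and SFRP5 varied by more than 2-fold over the 4 libraries, and the other 8 members by less than 1.5-fold. The highest library had 2.63 times the depth-scaled count of the lowest for SFRP5 and 2.40 times for LGR5. The same quotient was 1.48 for SFRP1, 1.25 for RNF43, 1.24 for LEF1, 1.23 for AXIN2, 1.16 for TCF7, 1.15 for LGR4, 1.10 for NKD1 and 1.03 for ZNRF3. Over all tested genes the median of this quotient was 1.20, and 3.15% of genes reached 2. MSI1 was the lowest library for LGR4, LGR5, SFRP1, AXIN2, RNF43 and LEF1, and SRRM3 was the highest for SFRP1, SFRP5, AXIN2, ZNRF3, RNF43, LEF1 and TCF7.

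**Figure D1:**
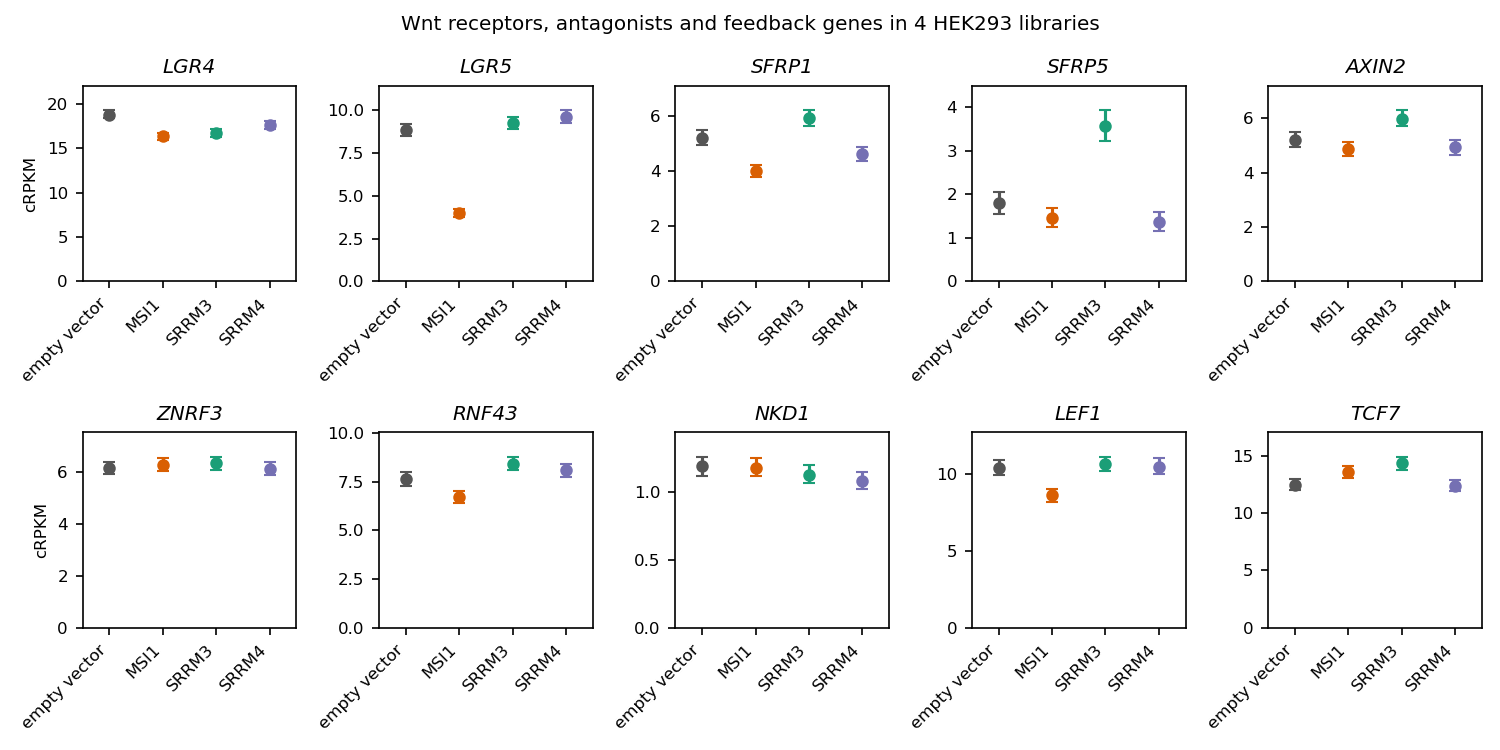
Level of each of the 10 members in the 4 libraries, in cRPKM on axes that start at 0; points are single libraries and bars are 95% Poisson intervals, which cover counting error only. LGR5 stands at 4.0 cRPKM in MSI1 against 8.86 to 9.62 elsewhere, and SFRP5 at 3.56 cRPKM in SRRM3 against 1.36 to 1.79 elsewhere.

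Differences between libraries were measured in 2 ways. The ratio of depth-scaled counts has an exact 95% interval that covers counting error only, and reads are not independent molecules. A gene was called 2-fold different where log2 of the quotient of cRPKM + 0.5 reached 1 in either direction, which is a rule of size. At this depth the interval excludes 1 for very many genes, so each count of members is set beside the share of all tested genes. The comparisons with the empty vector share that library.

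Of the receptors, LGR5 was low in MSI1 and LGR4 changed little. LGR5 (ENSG00000139292, GRCh38 chromosome 12, 71439770 to 71586310, plus strand) was at 8.86 cRPKM with 2508 reads in the empty vector, 4.0 with 1150 reads in MSI1, 9.23 with 2648 reads in SRRM3 and 9.62 with 2645 reads in SRRM4. MSI1 is the low library and the other 3 lie close together, with SRRM4 at 1.09 (1.03 to 1.15) of the empty vector. The ratio of MSI1 to the empty vector was 0.452 (0.421 to 0.485). It was 0.434 (0.404 to 0.465) to SRRM3 and 0.416 (0.388 to 0.446) to SRRM4. The low level in MSI1 was there against each of the other libraries, but these ratios share the MSI1 library and do not back each other. Between SRRM3 and SRRM4 the ratio was 1.04 (0.987 to 1.10), within counting error.

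LGR4 (ENSG00000205213, chromosome 11, 27365961 to 27472775, minus strand), the paralog of LGR5 that also binds R-spondins, was at 18.83 cRPKM in the empty vector, 16.39 in MSI1, 16.70 in SRRM3 and 17.66 in SRRM4. The empty vector is the high library here, and the ratios of MSI1, SRRM3 and SRRM4 to it were 0.870 (0.839 to 0.903), 0.887 (0.855 to 0.920) and 0.938 (0.904 to 0.973). MSI1 and SRRM3 did not differ beyond counting error. The cRPKM of LGR5 divided by that of LGR4 was 0.471 in the empty vector, 0.244 in MSI1, 0.553 in SRRM3 and 0.545 in SRRM4, so the pair differed unequally in MSI1. Summed over the pair, LGR4 and LGR5 were at 27.7 cRPKM in the control line and at 20.4 in MSI1. LGR6, the remaining relative, was at 0.07 to 0.09 cRPKM with 15 to 20 reads.

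The ligands of these receptors were scarce. RSPO2 was at 0.32 to 0.51 cRPKM and RSPO4 at 0.14 to 0.28, RSPO3 had 2 to 13 reads and RSPO1 had 1 to 9 reads per library. None of the 4 R-spondins passed the filter.

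Both secreted antagonists were highest in SRRM3, while the lowest library was SRRM4 for SFRP5 and MSI1 for SFRP1. SFRP5 (ENSG00000120057, chromosome 10, 97766751 to 97771952, minus strand) was at 1.79 cRPKM with 199 reads in the empty vector, 1.45 with 163 reads in MSI1, 3.56 with 400 reads in SRRM3 and 1.36 with 146 reads in SRRM4. SRRM3 is the high library. Its ratio to the empty vector was 1.98 (1.67 to 2.36), and the log2 fold on the cRPKM + 0.5 scale was 0.83, under the 2-fold rule. SRRM4 was below the empty vector at 0.756 (0.606 to 0.940), and the ratio of SRRM4 to SRRM3 was 0.381 (0.313 to 0.461), with a log2 fold of -1.13. MSI1 and SRRM4 did not differ beyond counting error, with a ratio of 1.07 (0.849 to 1.34).

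SFRP1 (ENSG00000104332), a paralog of SFRP5, was at 5.22 cRPKM in the empty vector, 4.01 in MSI1, 5.93 in SRRM3 and 4.62 in SRRM4. It had the same order of SRRM3 above the empty vector above SRRM4, with much smaller steps: 1.13 (1.06 to 1.22) for SRRM3 to the empty vector and 0.885 (0.819 to 0.955) for SRRM4. In MSI1 the ratio was 0.768 (0.710 to 0.831), the second lowest of the members there, and each step between neighbouring libraries exceeded counting error. The cRPKM of SFRP5 divided by that of SFRP1 was 0.600 in SRRM3 and between 0.294 and 0.362 in the other libraries. Both antagonists together summed to 9.49 cRPKM in SRRM3, 7.01 in the empty vector, 5.98 in SRRM4 and 5.46 in MSI1.

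The feedback inhibitors moved little. AXIN2 (ENSG00000168646, chromosome 17, 65528563 to 65561647, minus strand), the target gene most often read as a gauge of β-catenin activity, was at 5.20 cRPKM in the empty vector, 4.87 in MSI1, 5.99 in SRRM3 and 4.93 in SRRM4. Only SRRM3 stood apart, at 1.15 (1.07 to 1.24) of the empty vector. The ratio of MSI1 to the empty vector was 0.938 (0.868 to 1.01) and that of SRRM4 0.949 (0.878 to 1.03). ZNRF3 (ENSG00000183579, chromosome 22, 28883592 to 29057487) was at 6.17 cRPKM in the control line, 6.28 in MSI1, 6.34 in SRRM3 and 6.14 in SRRM4, and no pair of libraries differed beyond counting error. RNF43 (ENSG00000108375, chromosome 17, 58352500 to 58417595), its partner ligase, was at 7.64, 6.72, 8.43 and 8.09 cRPKM in the same order. MSI1 is the low library for RNF43, with a ratio of 0.880 (0.825 to 0.937), and SRRM3 was at 1.10 (1.04 to 1.17). NKD1 (ENSG00000140807, chromosome 16, 50548330 to 50649249) was at 1.19, 1.18, 1.13 and 1.08 cRPKM, and of its ratios to the empty vector only that of SRRM4, 0.911 (0.839 to 0.988), excluded 1. As a group the 4 inhibitors summed to between 19.1 and 21.9 cRPKM.

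The transcription factors lay on opposite sides of the control line in MSI1. LEF1 (ENSG00000138795, chromosome 4, 108047545 to 108168956) was at 10.41 cRPKM in the empty vector, 8.60 in MSI1, 10.62 in SRRM3 and 10.47 in SRRM4. MSI1 is again the low library, at 0.826 (0.773 to 0.882) of the empty vector, and the other 3 agree within counting error. TCF7 (ENSG00000081059, chromosome 5, 134114711 to 134151865) was at 12.48, 13.59, 14.34 and 12.38 cRPKM. It was higher in MSI1 at 1.09 (1.03 to 1.15) and in SRRM3 at 1.15 (1.08 to 1.22), and within counting error in SRRM4. The cRPKM of LEF1 divided by that of TCF7 was 0.834 in the empty vector and 0.633 in MSI1. Exons of SKP1, on the strand opposite to TCF7 and with 21780 to 23372 reads, overlap those of TCF7 over 210 bases in GENCODE 29; whether the counting used strand is not stated in the labels, and without strand reads of both genes in that stretch cannot be told apart. Exons of SUPT4H1 (7028 to 8089 reads) overlap RNF43 over 143 bases on the same strand. Those of AC004687.2 overlap RNF43 over 4326 bases, and those of AC004805.1 overlap AXIN2 over 1316 bases, also on the same strand. AC004687.2 and AC004805.1 had no value. TSPOAP1-AS1 (12 to 22 reads) overlaps RNF43 over 1521 bases on the opposite strand. The part of these overlaps in the values of RNF43 and AXIN2 was not tested. The antisense gene over LGR5 had at most 1 read.

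Counted over the members, 1 of 10 (LGR5) was at least 2-fold different in MSI1 over the empty vector, against 0.669% of all tested genes, and the same 1 at 1.5-fold, against 2.89%. LGR5 was part of the choice of the list, so nothing is read from this count. In MSI1 6 members (LGR4, LGR5, SFRP1, SFRP5, RNF43 and LEF1) had an interval below 1 and TCF7 had an interval above 1, where the shares over all genes were 27.6% and 32.3%. The median log2 fold of the members was -0.18 in MSI1, against 0.016 over all genes.

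In SRRM3 over the empty vector 0 members were 2-fold different, against 0.882% of all genes, and SFRP5 was 1.5-fold different, against 2.62%. An interval above 1 was found for 5 members (SFRP1, SFRP5, AXIN2, RNF43 and TCF7) and an interval below 1 for LGR4, with shares over all genes of 29.6% and 28.1%. The median log2 fold was 0.09, against 0.003 over all genes.

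In SRRM4 over the empty vector 0 members reached 2-fold or 1.5-fold, against 0.771% and 1.83% of all genes. LGR5 alone had an interval above 1, at 1.09 (1.03 to 1.15), and 4 members (LGR4, SFRP1, SFRP5 and NKD1) had an interval below 1, with shares over all genes of 23.2% and 25.1%. The median log2 fold of the members was -0.04, against -0.003 over all genes.

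In SRRM4 over SRRM3, which does not use the empty vector, SFRP5 was the 1 member at 2-fold, against 0.512% of all genes, and also the 1 member at 1.5-fold, against 2.19%; SFRP5 was chosen with this contrast known. LGR4 had an interval above 1 and 4 members (SFRP1, SFRP5, AXIN2 and TCF7) had an interval below 1, with shares of 27.1% and 30.5% over all genes. The median log2 fold was -0.05 for the members and -0.007 over all genes.

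**Figure D2:**
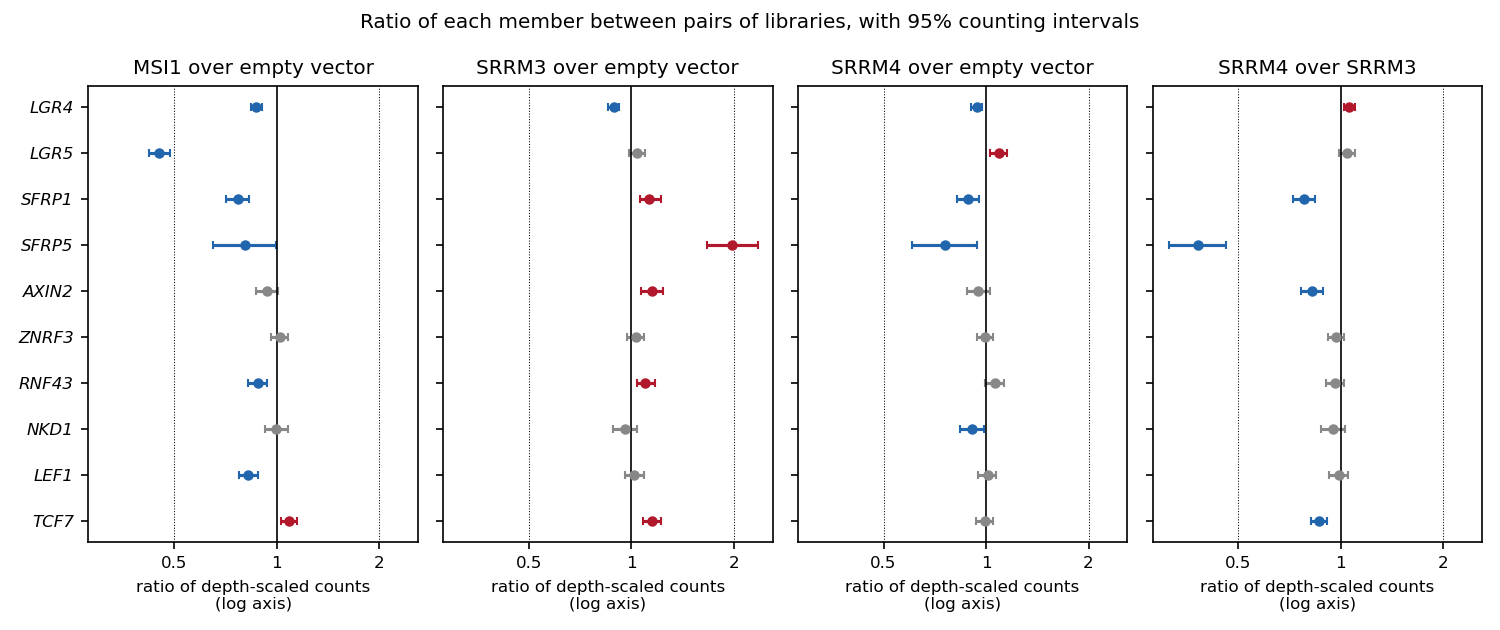
Ratio of depth-scaled counts of the 10 members for 4 pairs of libraries, on a log axis; bars are exact 95% counting intervals, red and blue mark intervals above and below 1, grey those that include 1, and dotted lines mark 0.5 and 2. LGR5 lies under 0.5 in MSI1 over the empty vector and SFRP5 under 0.5 in SRRM4 over SRRM3, while the other points lie between 0.756 and 1.98.

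The rest of the pathway was taken from lists of 118 other genes, of which 79 passed the filter. In MSI1 over the empty vector 1 of the 79 was at least 2-fold different, against 0.669% of all tested genes. In SRRM3 and SRRM4 over the empty vector and SRRM4 over SRRM3 it was 0, against 0.882%, 0.771% and 0.512%. Nothing is read from these counts. The 1 gene was WNT5A, a ligand that mostly signals without β-catenin. WNT5A was at 6.11 cRPKM in the empty vector, 2.78 in MSI1, 6.94 in SRRM3 and 5.37 in SRRM4, and MSI1 is the low library as for LGR5. The ratio of MSI1 to the empty vector was 0.456 (0.423 to 0.491). Of the 8 ligands that passed, WNT11 had a ratio of 1.49 (1.29 to 1.74) in MSI1, from 2.53 to 3.77 cRPKM, and the median log2 fold of the ligands in MSI1 was 0.12. In SRRM3 6 of the 8 ligands had an interval above 1 and 0 an interval below 1, against 29.6% and 28.1% of all tested genes. Among the 6 were WNT3 at 1.34 (1.24 to 1.44) and WNT6 at 1.78 (1.39 to 2.29) of the empty vector, with a median of 0.20. The 11 ligands that did not pass reached at most 0.870 cRPKM. Pathway genes under the filter were not part of the 2-fold calls. Among them FZD10 had 213 reads in the empty vector and 91 in MSI1. In the same order WNT3A had 57 and 140 reads, and the antagonist WIF1 had 59 and 135.

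Of the machinery that makes and secretes Wnt ligands, WLS, which carries them to the surface, was at 0.867 (0.844 to 0.890) of the empty vector in MSI1. PORCN, which attaches their lipid, was at 1.34 (1.15 to 1.57) in SRRM4.

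Among 15 receptors and co-receptors 9 had an interval below 1 in MSI1 and 2 an interval above 1, against 27.6% and 32.3% of all tested genes, with a median log2 fold of -0.18. FZD4 had the largest difference, 3.88 cRPKM in the empty vector against 2.51 in MSI1, a ratio of 0.646 (0.599 to 0.697), and FZD9 and FZD8 were at 0.801 (0.704 to 0.911) and 0.866 (0.814 to 0.922). The co-receptors were also at or below 1, with LRP5 at 0.846 (0.814 to 0.879) and LRP6 at 0.967 (0.934 to 1.00) in MSI1. In SRRM4 over SRRM3 11 of the 15 had an interval below 1 and 1 (LRP5, at 1.13) an interval above 1, against 30.5% and 27.1% of all tested genes. FZD2 had the largest difference of them there, 0.704 (0.641 to 0.774).

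Of 18 other antagonists only 5 passed. DKK3, a divergent member of the Dickkopf family, was at 1.14 cRPKM in the empty vector, 1.66 in MSI1, 1.57 in SRRM3 and 0.88 in SRRM4. APCDD1, a membrane inhibitor that is itself a Wnt target, was at 5.39, 4.06, 6.30 and 4.50 cRPKM, which is the order of SFRP1: SRRM3 high and MSI1 low. KREMEN1, a Dickkopf receptor, was at 1.20 (1.15 to 1.25) of the empty vector in SRRM3 and 0.914 (0.873 to 0.957) in SRRM4, and TRABD2A, a protease that inactivates Wnt ligands, differed from it by no more than counting error in any line. In SRRM4 over SRRM3 all 5 had a ratio below 1, 4 of them with an interval below 1, against 30.5% of all tested genes, and the median log2 fold was -0.38.

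Differences in the cytoplasmic core were small. CTNNB1, which encodes β-catenin, was at 155.79 cRPKM in the empty vector, 155.20 in MSI1, 170.84 in SRRM3 and 157.43 in SRRM4, with SRRM3 at 1.10 (1.08 to 1.11). Of 18 genes 11 had an interval above 1 and 1 an interval below 1 in MSI1, where the shares over all tested genes were 32.3% and 27.6%. These counts were 12 and 2 in SRRM3, against 29.6% and 28.1%, and 8 and 4 in SRRM4, against 23.2% and 25.1%. The median log2 folds were 0.09, 0.09 and 0.04. DVL2, a Dishevelled that relays the receptor signal, was at 1.16 (1.12 to 1.20), 1.25 (1.21 to 1.29) and 1.12 (1.08 to 1.16) in the 3 lines, and NKD2, the paralog of NKD1, at 1.26 (1.13 to 1.42) in MSI1. AMER1, which recruits the destruction complex to the membrane, was lower in MSI1 and SRRM3, at 0.711 (0.598 to 0.845) and 0.654 (0.547 to 0.780). CTNNBIP1, an inhibitor of the binding of β-catenin to TCF, was at 0.841 (0.780 to 0.906) in SRRM4.

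Among the nuclear factors TCF7L2 was at 10.31 cRPKM in the control line, 9.08 in MSI1, 11.10 in SRRM3 and 10.27 in SRRM4, and its ratio of 0.880 (0.802 to 0.966) in MSI1 resembled that of LEF1 in direction. TCF7L1 was at 1.31 (1.19 to 1.45) of the empty vector in SRRM3. The corepressors TLE1 and TLE2 differed in direction in MSI1, at 0.783 (0.753 to 0.814) and 1.29 (1.13 to 1.48), and TLE2 was at 0.558 (0.483 to 0.643) in SRRM4 over SRRM3. TBL1X, with 31 to 61 reads, differed from the empty vector by no more than counting error in any line.

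Of 16 other Wnt target genes that passed, 9 had an interval below 1 in MSI1 and 3 an interval above 1, against 27.6% and 32.3% of all tested genes, with a median log2 fold of -0.30. In SRRM3 11 had an interval above 1 and 4 an interval below 1, against 29.6% and 28.1%, with a median of 0.12, and the 4 of 16 are about the share over all genes. MYC was at 15.31 cRPKM in the empty vector, 8.63 in MSI1, 9.83 in SRRM3 and 15.11 in SRRM4, and CCND1 (cyclin D1) at 24.54, 18.37, 19.86 and 23.87: MSI1 and SRRM3 are the low libraries and SRRM4 is near the empty vector. JUN and CD44 were higher in MSI1, at 1.74 (1.71 to 1.77) and 1.69 (1.59 to 1.79), and CD44 was lower in SRRM3 at 0.692 (0.645 to 0.743). TBXT (brachyury) was at 1.25, 2.03, 2.55 and 1.16 cRPKM, a ratio of 1.62 (1.35 to 1.96) in MSI1 and 2.04 (1.71 to 2.45) in SRRM3. SP5, a direct target that did not pass the filter, was at 0.75, 1.13, 1.24 and 0.64 cRPKM with 73 to 146 reads, the order of TBXT. MYC, CCND1, JUN and CD44 are known to answer to other pathways as well.

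Over the 79 genes 24 had an interval above 1 and 28 an interval below 1 in MSI1, against 32.3% and 27.6% of all tested genes. The counts were 45 and 10 in SRRM3, against 29.6% and 28.1%, and 17 and 24 in SRRM4, against 23.2% and 25.1%. In SRRM4 over SRRM3 they were 12 and 48, against 27.1% and 30.5%. Their median log2 folds in the same order were -0.03, 0.11, -0.04 and -0.11, against 0.016, 0.003, -0.003 and -0.007 over all genes.

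**Figure D3:**
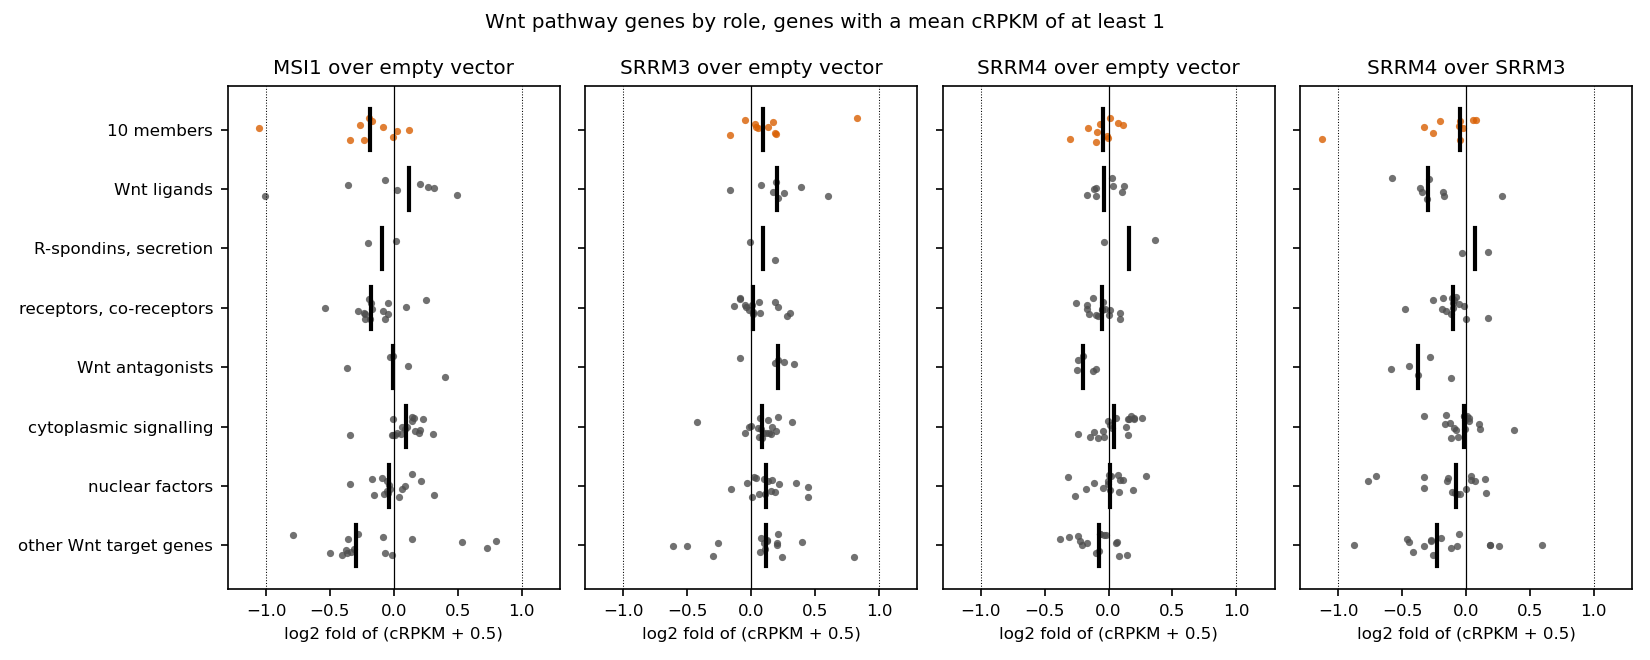
Log2 fold on the cRPKM + 0.5 scale of the 10 members (orange) and of the other Wnt pathway genes by role (grey), for 4 pairs of libraries; points are genes with a mean of at least 1 cRPKM, black bars are medians, and dotted lines mark the 2-fold rule. WNT5A lies beyond the line with LGR5 in MSI1 over the empty vector, and SFRP5 alone lies beyond it in SRRM4 over SRRM3.

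The genes whose pattern was most like that of LGR5 and of SFRP5 were found among 11568 protein-coding genes with at least 20 reads in each library, by the root mean square difference of log2(cRPKM + 0.5) profiles centred on their own mean over the 4 libraries. For LGR5 they were SHISA2, WNT5A, UNC5C, SCIN and RAMP1, with differences of 0.135, 0.152, 0.161, 0.162 and 0.169. SHISA2 was at 10.77 cRPKM in the empty vector, 5.04 in MSI1, 9.04 in SRRM3 and 10.19 in SRRM4, and UNC5C, a netrin receptor, at 4.86, 2.51, 4.90 and 4.45. WNT5A, the ligand described above, is thus the second nearest of all ranked genes to LGR5. For SFRP5 they were PTCHD1, ALG1L1P, TMEM121, TSC22D3 and NYNRIN, with differences of 0.102, 0.103, 0.106, 0.115 and 0.119. PTCHD1 was at 4.24, 3.81, 6.94 and 3.48 cRPKM, and TSC22D3, a gene induced by glucocorticoids, at 42.65, 34.91, 65.93 and 37.46. None of these 5 is on the Wnt lists. ALG1L1P is a near copy of ALG1, and reads could be split between them. A profile over 4 libraries has few points, so many genes lie close to any target.

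**Figure D4:**
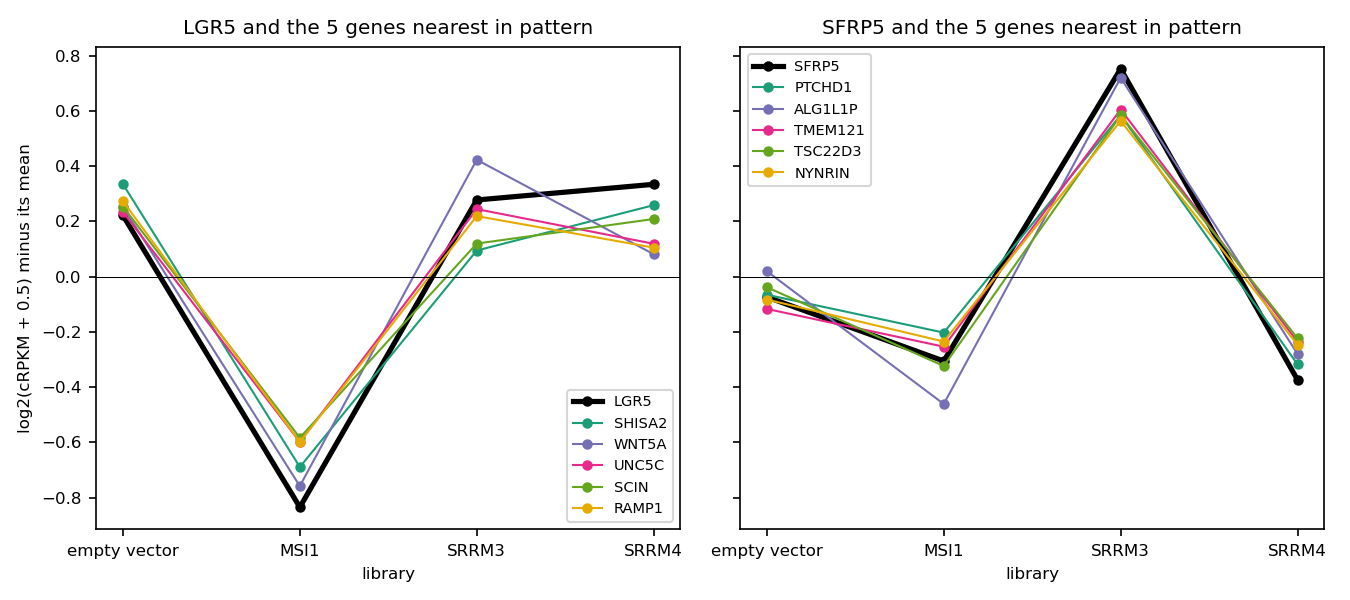
Log2(cRPKM + 0.5) minus its mean over the 4 libraries for LGR5 (left, black) and SFRP5 (right, black) and the 5 genes nearest to each (colours); lines only join the points of a gene, and the libraries have no order. The genes near LGR5 are low in MSI1, and those near SFRP5 are high in SRRM3.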

How the data were processed

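PolyA-selected, stranded RNA-seq of 4 HEK293 libraries was used, 1 per group. The authors deposited, per gene, a cRPKM value (a corrected RPKM) and a whole-number read count, without a file header. GRCh38 (hg38) is named in the submitters' processing notes. For the aligner, the counting program and the use of strand, nothing is given in the sources used here. Of 41614 genes, 1426 had no value and 39633 of the other 40188 matched a symbol. Coordinates are from GENCODE 29 on GRCh38.

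The comparison used the 12706 genes whose cRPKM averaged 1 or more, leaving out the induced genes, by log2 of cRPKM + 0.5 and a 2-fold rule of size. Intervals are Clopper-Pearson 95% intervals of count ratios, and they cover counting error only. The procedure was tested on simulated data, drawn as Poisson counts without variation between libraries. That is the model the intervals assume, so this test cannot speak to differences between lines. The members, the lists and the rule for named genes (all members, up to 4 genes per list plus any at 2-fold, 8 core genes and 5 nearest patterns) were chosen with earlier results of these data known. The marker genes, the genes that overlap members, LGR6, the R-spondins, FZD6, PTK7, FZD10, WNT3A and WIF1 were named after their values were seen. Alternatives were pseudocounts of 0.1 and 2, no filter, a mean of at least 5, TMM and DESeq2 factors, centring, a 1.5-fold rule and the rule with the interval. Factors came from edgeR 4.0.16 and DESeq2 1.42.0 in R 4.3.3, intervals from scipy 1.17.1, tables from pandas 2.3.3 with numpy 2.4.6, and figures from matplotlib 3.10.9, in Python 3.11.15.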

Additional observations from a re-analysis of the deposited data

Results flagged for a closer look

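For 4 of the 10 members, 1 line lay above the empty vector and another below it with intervals that exclude 1, as was seen for 21.4% of all 12706 tested genes. SFRP5 was above it in SRRM3 (ratio 1.98) and below it in MSI1 (0.807) and SRRM4 (0.756). SFRP1 was above it in SRRM3 (1.13) and below it in MSI1 (0.768) and SRRM4 (0.885). LGR5 was above it in SRRM4 (1.09) and below it in MSI1 (0.452), and RNF43 was above it in SRRM3 (1.10) and below it in MSI1 (0.880). These differences were not tested, since each group has 1 library, and all of them share the empty-vector library.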

How the results depend on the processing

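No paired analysis was possible because each group has 1 library. With 1 library per group every value compares libraries, and the depth of 60288244 to 63003121 reads limits SFRP5 most. With a pseudocount of 2, 0 members were 2-fold different in MSI1 over the empty vector (LGR5 at -0.86) and 0 in SRRM4 over SRRM3 (SFRP5 at -0.73), since a larger pseudocount shrinks low genes. A mean cRPKM of at least 5 leaves 7 members, and 0 of them were 2-fold different in SRRM4 over SRRM3, since SFRP5 is left out. With the 1.5-fold rule 1 member, SFRP5, was called in SRRM3 over the empty vector. There were 268 alternative values of a member's log2 fold. Of these, 265 moved by no more than the distance from the middle to an end of their counting interval on the log2 scale. The other 3 moved by more (the third is SFRP5 in SRRM3 over the empty vector, 0.55 with a pseudocount of 2), and 0 called values reversed. The sign of ZNRF3 in MSI1 turned from 0.02 to -0.01 with DESeq2 factors. Counts of all genes at 2-fold depend on these choices. For MSI1, SRRM3 and SRRM4 over the empty vector and SRRM4 over SRRM3 they were 85, 112, 98 and 65. They became 130, 154, 119 and 92 with a pseudocount of 0.1 and 33, 50, 43 and 28 with one of 2. Without the filter they were 243, 277, 238 and 215, and with a mean of at least 5 they were 19, 22, 15 and 14. With TMM factors they were 50, 73, 52 and 25, and with DESeq2 factors 50, 73, 52 and 26. With the interval they were 45, 66, 53 and 28, and with the 1.5-fold rule 367, 333, 233 and 278. The share of higher genes among these calls was 44.7%, 66.1%, 71.4% and 53.8%, and 44.0%, 79.5%, 94.2% and 48.0% with TMM factors.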
